A study of Homo sapiens with 52 samples.

Results

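The direct difference between fibroblasts released from sodium dodecyl sulfate (SDS) and fibroblasts released from potassium chloride (KCl) was measured 1 and 2 days after the chemicals had been washed away. The cells were WI-38, a normal human lung fibroblast line of embryonic origin with a limited division span. SDS is a detergent that damages the plasma membrane, and SDS-treated cells that stop dividing are called PMD-Sen cells (plasma membrane damage-dependent senescence). KCl depolarises the membrane and lets calcium in, and KCl-treated cells that stop dividing are called Ca-Sen cells (calcium influx-dependent senescence). Both groups were young cells given 0.0090% SDS or 75 mM KCl in the medium for 24 h, then fresh medium, and RNA was collected on day 1 and on day 2. Each group had 2 libraries, and 2 libraries of young untreated cells gave the level before treatment. A gene was a member if its deposited mean of normalised counts was at least 10 in all 4 tables (PMD-Sen and Ca-Sen, each on day 1 and day 2). This left 14115 of the 59408 genes listed.

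The whole reads of each library were recovered from the deposited means for 13830 of these genes, which were tested. For the other 285, all of them abundant, the reads of the PMD-Sen day 1 group could be split between its libraries in more than 1 way, so that their group means are given here as values with no test. Libraries could not be tied to the replicate numbers and are called deeper and shallower within a group. Values given in pairs follow that order. The study's methods call the sequenced samples of a group independent, without saying whether they were separate cultures, and p-values measure the spread between these libraries only. SDS minus KCl differences are on the log2 scale with the standard error (SE), and a gene was called when its limma p-value, adjusted over all tested genes, was under 0.05.

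Cells that survive a tear in the plasma membrane reseal it, rebuild the cortical actin that lies under it and turn over damaged membrane in lysosomes. Calcium entering through the tear starts this repair, and calcium entering through voltage-gated channels after KCl reaches the cytosol without a tear. Actin also controls transcription. Free actin monomers hold the coactivator MRTF in the cytoplasm, and when monomers are drawn into filaments MRTF joins serum response factor (SRF) at CArG boxes near the start sites of contractile genes. Fibroblasts further respond to misfolded protein or amino acid shortage through the integrated stress response and its factor ATF4, and to DNA breaks and other stress through p53.

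The 10 libraries held 15258997 to 51422500 counted reads, and the 2 PMD-Sen day 2 libraries were deepest. Mitochondrially encoded genes took 3.2 to 4.0% of reads in every library. All 16 fibroblast markers had reads, and their summed normalised reads were 829000 to 834000 in PMD-Sen day 1, 972000 to 1020000 in Ca-Sen day 1, 747000 to 756000 in PMD-Sen day 2 and 1020000 to 1070000 in Ca-Sen day 2. Of 14 epithelial markers 12 had reads, with none for KRT5 and SFTPC, and their sums ran from 2550 to 5540. All 10 endothelial markers had reads, with sums of 1350 to 3080 that lay mostly in TEK. Of 15 white blood cell markers 12 had reads, with none for CD3D, CD3E and MS4A1, and sums of 523 to 1070. The sums of all 4 marker sets were lower in PMD-Sen than in Ca-Sen on both days, but each rested on few genes. On day 1 the largest fibroblast gap was in COL1A1, with means of 123929 against 294575. Most other fibroblast markers were lower too, while FN1 (327276 against 272046), VIM, P4HB and FAP were higher. The epithelial sums lay mostly in KRT8, KRT18 and KRT19, and the white blood cell sums in CD4. The part of the marker sets in the results was not tested, and in bulk RNA fewer cells of a type and less RNA per cell cannot be told apart. Of 10546 genes with a mean of at least 100 normalised reads, 74 differed more than 4-fold between the 2 libraries of at least 1 group. Where such a gene is named this is said, and the cause was not tested.

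On day 1, 3731 of 13830 genes were called (27.0%), 1834 of them higher after SDS (13.3%) and 1897 lower (13.7%). On day 2, 3083 were called (22.3%), 1600 higher (11.6%) and 1483 lower (10.7%). Counts of calls in the gene lists below stand against these shares. Which direction was more common depended on the scaling: with library totals 2063 were higher and 1722 lower on day 1 and 1259 higher and 1644 lower on day 2, and with the upper quartile 1257 were higher and 1688 lower on day 2. Large differences were mostly decreases: with a log2 difference of at least 1 in size as well, 126 genes were higher and 290 lower on day 1, and 81 were higher and 219 lower on day 2. Over genes with higher reads, the SD of log2 differences between 2 libraries was 0.220 to 0.284 within a group, 0.398 to 0.439 between SDS and KCl libraries of day 1 and 0.321 to 0.410 between those of day 2. For comparison, it was 0.496 to 0.562 between PMD-Sen day 1 and untreated libraries, and 0.386 to 0.430 between Ca-Sen day 1 and untreated libraries. Counts of calls moved strongly with single libraries. Without 1 of the 4 libraries of day 1 the count for day 1 was 1928 to 2454, against 3731. For day 2 it was 1126 without the deeper PMD-Sen library, 1136 without the shallower Ca-Sen library and 1906 without the deeper Ca-Sen library, against 3083.

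The calls of the 2 days overlapped in part. The 621 genes higher on both days were 33.9% of those higher on day 1 and 38.8% of those higher on day 2, and the 683 genes lower on both days were 36.0% and 46.1%. Another 145 genes were called in opposite directions, 103 lower on day 1 and higher on day 2, and 42 the reverse. The change of the difference from day 1 to day 2 was tested in the same fit. It was called for 1225 genes (8.86%), 736 with a rise (5.32%) and 489 with a fall (3.54%), among them all 145 genes that turned. For those 145 this is no separate support, since the change is built from the same 2 differences. Scaling by library totals gave 547 rises and 668 falls. Leaving out 1 library moved the 1225 to 511 (PMD-Sen day 1 deeper), 516 and 474 (Ca-Sen day 1 deeper and shallower), 757 and 763 (PMD-Sen day 2 deeper and shallower), and 717 and 498 (Ca-Sen day 2 deeper and shallower). The 2 differences share no library, and across the 13830 genes their Pearson correlation was 0.407, as a description, since genes are not independent.

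**Figure D1:**
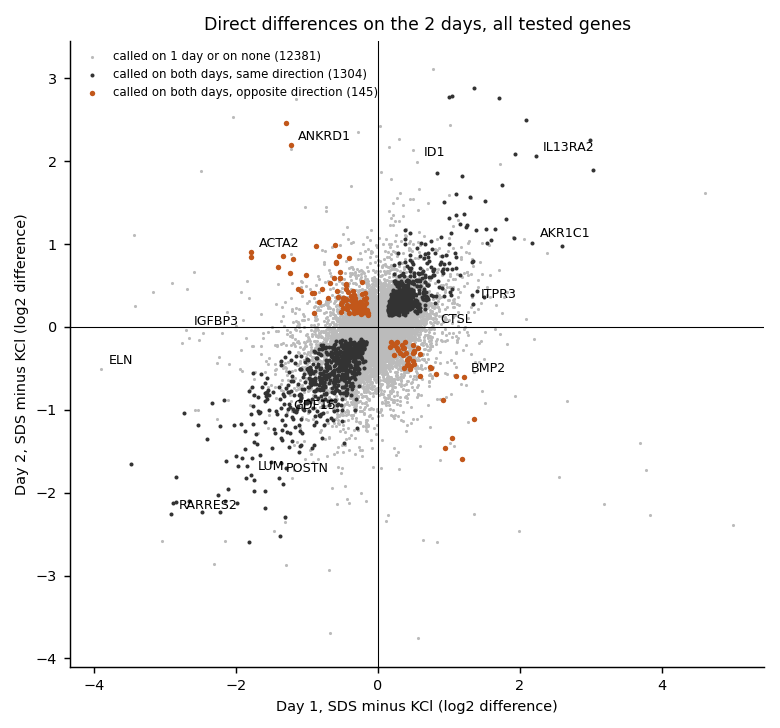
SDS minus KCl log2 differences of the 13830 tested genes on day 1 (horizontal) and day 2 (vertical), 1 point per gene. Genes called in the same direction on both days lie along the rising diagonal, and the 145 genes called in opposite directions lie mostly at the upper left, with ACTA2 and ANKRD1 among the farthest from the centre.

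Contractile genes made the clearest turn. The median log2 ratio of the tested ones over untreated cells was -1.04 on day 1 and 0.42 on day 2 after SDS, and -0.21 and -0.14 after KCl. ACTA2, the smooth muscle alpha-actin of contractile fibroblasts (chr10:88935074-88991337 of GRCh38.p14, minus strand), had 8425 and 9226 normalised reads in untreated cells, 2384 and 2156 in PMD-Sen day 1 and 7957 and 7740.4 in Ca-Sen day 1. On day 2 it had 13445 and 15218 in PMD-Sen and 7921 and 7389 in Ca-Sen. The SDS libraries thus lay below all others on day 1 and above all others on day 2, with no overlap. The difference was -1.78 ± 0.08 on day 1 (adjusted p = 1.1e-06), which is 3.44-fold lower, and 0.90 ± 0.07 on day 2 (adjusted p = 9.6e-05), and the change between the days was 2.69 ± 0.11 (adjusted p = 6.5e-07).

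CNN1, the actin-binding calponin of smooth muscle, followed the same course, with 1726 and 1652 normalised reads in PMD-Sen against 3572 and 3842 in Ca-Sen on day 1 and 5795 and 6559 against 4534 and 4398 on day 2. Its difference went from -1.13 ± 0.08 to 0.46 ± 0.07 (adjusted p of the change = 3.5e-05). For ACTG2, a second smooth muscle actin whose reads may be shared with other actins of near-identical sequence, the values were 6766 and 6965 against 14456 and 14740.1 and then 23354 and 26802 against 18487 and 18527, with differences of -1.09 ± 0.07 and 0.43 ± 0.07. LMOD1, which starts actin filaments in smooth muscle, went from -0.54 ± 0.12 to 0.59 ± 0.11. None of these 4 genes overlapped between the SDS and KCl libraries on either day. With 2 libraries a group this is a description and no separate support, and its share over all tested genes is not given here.

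Of the 25 contractile genes and SRF targets listed, 9 were tested. On day 1, 6 were lower and 1 higher (median difference -0.50, against 0.0036 over all tested genes), and on day 2, 7 were higher and none lower (median 0.39, against 0.0003). In the change, 6 rose and none fell. The gene higher on day 1 was SRF itself, at 3931 and 4280.3 against 3025 and 3135 normalised reads (0.41 ± 0.06, adjusted p = 0.00068), and it was also higher on day 2 (0.22 ± 0.06, adjusted p = 0.021). The day 1 count of 6 did not change without any 1 library, and the day 2 count was 6 or 7. The 16 listed genes without a single split are abundant cytoskeletal genes. Their ratio of group means was below 0 on day 1 for 15 of the 16 and above 0 on day 2 for 15 of the 16. Over all 285 genes without a single split, the ratio was below 0 for 143 on day 1 and above 0 for 173 on day 2. TPM1, a tropomyosin that coats actin filaments, had a mean of 16136 in PMD-Sen against 33314 in Ca-Sen on day 1 and 29819 against 19202 on day 2. CALD1, caldesmon, had 22740 against 40890 and then 53430 against 39380. Beta-actin (ACTB) had 190480 against 245648 and then 305854 against 216599, and TAGLN, transgelin, had 14840 against 32744 and then 38382 against 36619.

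CArG boxes, written here as CC, then 6 bases that are A or T, then GG, lie before the start sites of some of the listed genes. Searched on both strands in the 250 bases before the start of each gene in RefSeq's GRCh38.p14 annotation, the box was found in 8 of the 22 listed genes with a promoter entry, and in 312 of 27305 promoters in all (1.14%). The 8 were ACTG1, ACTG2, CNN2, FHL2, FLNA, MYLK, SRF and TPM4. ACTA2, CNN1, LMOD1, TPM1, CALD1, ACTB and TAGLN were not among them. This does not show that they lack a box. Only 250 bases before 1 start per gene were searched, so boxes farther away or at other starts would be missed. Listed genes without a promoter entry were not searched. MYLK did not turn by its means, at 24194 against 29889 on day 1 and 38101 against 39673 on day 2. A match is a description of these letters and not a mapped binding site. The 3 sequences below, 5′ to 3′ on each gene's strand and with CArG boxes in capitals, belong to tested genes that differed in course: ACTG2 and FHL2 were lower on day 1 and higher on day 2, and SRF was higher on both days. ACTG2 lies at chr2:73892758-73893007 (plus strand) with 2 boxes, FHL2 at chr2:105438514-105438763 (minus strand) with 1 box, and SRF at chr6:43171019-43171268 (plus strand) with 2 boxes.
ACTG2: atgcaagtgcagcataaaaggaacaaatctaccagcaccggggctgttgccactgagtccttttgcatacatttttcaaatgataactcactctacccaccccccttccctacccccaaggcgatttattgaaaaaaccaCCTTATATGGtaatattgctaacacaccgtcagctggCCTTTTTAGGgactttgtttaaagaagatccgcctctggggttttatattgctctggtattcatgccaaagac
FHL2: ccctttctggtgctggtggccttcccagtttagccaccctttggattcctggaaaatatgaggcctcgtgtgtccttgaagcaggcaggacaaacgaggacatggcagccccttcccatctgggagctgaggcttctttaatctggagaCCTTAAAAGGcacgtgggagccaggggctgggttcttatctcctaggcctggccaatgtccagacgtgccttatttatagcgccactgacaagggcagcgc
SRF: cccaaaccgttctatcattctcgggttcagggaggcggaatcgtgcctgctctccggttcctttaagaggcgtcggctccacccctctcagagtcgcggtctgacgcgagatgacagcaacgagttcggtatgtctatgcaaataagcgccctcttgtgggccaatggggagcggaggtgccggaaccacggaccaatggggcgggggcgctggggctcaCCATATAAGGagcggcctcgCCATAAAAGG
FHL2, a LIM-domain partner of SRF, had 4886 and 4903 against 6151 and 6217 normalised reads on day 1 (-0.34 ± 0.05) and 7660.1 and 8334 against 6776 and 6837 on day 2 (0.23 ± 0.05, adjusted p = 0.0071).

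**Figure D2:**
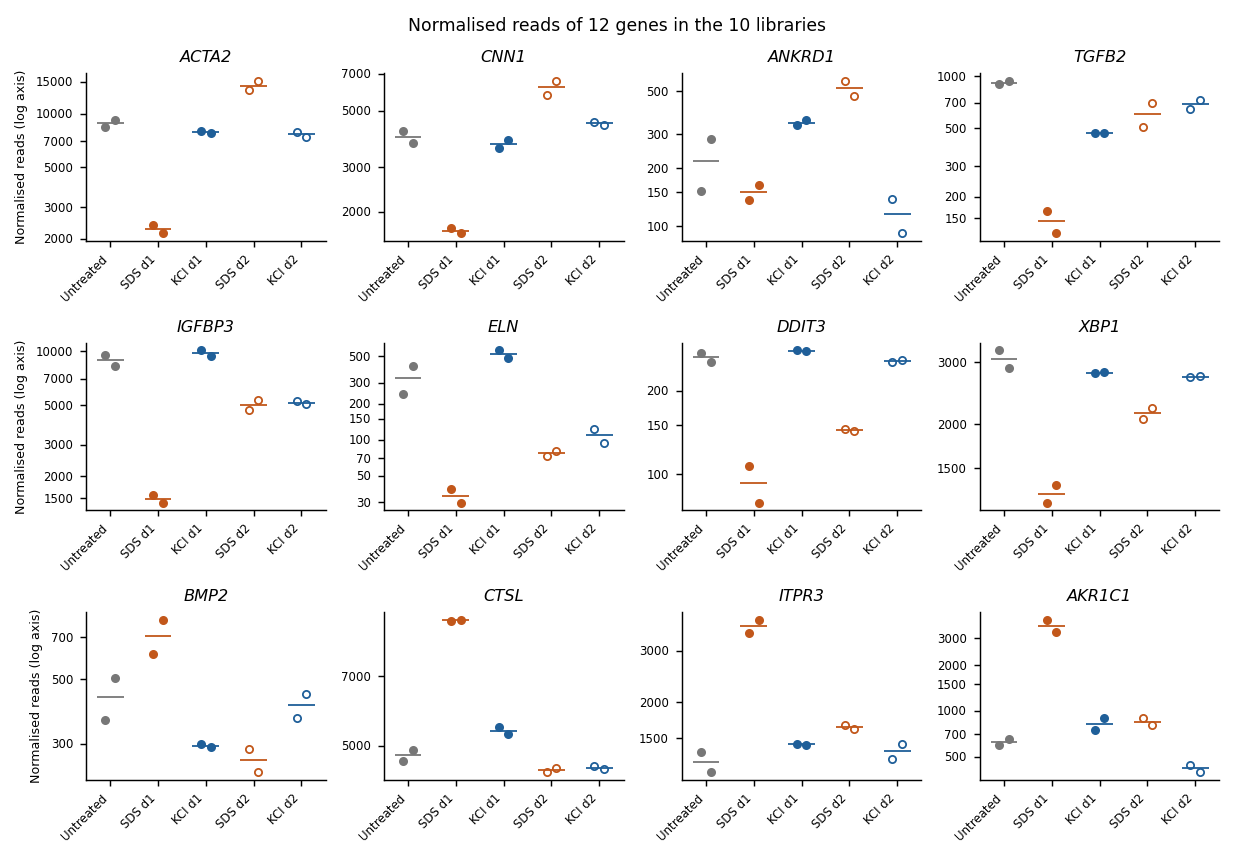
Normalised reads (log axis) of 12 genes in the 10 libraries, with untreated cells in grey, SDS in orange and KCl in blue, filled for day 1 and open for day 2 (d1, d2), and a bar at each mean of 2 libraries. After SDS, ACTA2 and CNN1 move from below to above the KCl and untreated libraries, while IGFBP3 and ELN are low after SDS on day 1 and close to KCl on day 2.

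Targets of YAP and TEAD, the factors that read cell stretch and adhesion, were likewise lower after SDS on day 1. Of 20 listed, 14 were tested, with 7 lower and none higher on day 1 (median -0.36) and 4 higher and 2 lower on day 2 (median 0.02). The shares over all tested genes were 13.7% lower on day 1, and 11.6% higher and 10.7% lower on day 2. The change was called for 6, all rises. Without the deeper PMD-Sen day 1 library 4 were lower on day 1, and the 4 higher on day 2 became 2, 2 and 1 without the deeper or shallower PMD-Sen or the shallower Ca-Sen day 2 library. ANKRD1, a nuclear and sarcomere protein and a standard YAP readout, had 152 and 283 normalised reads in untreated cells, 137 and 164 in PMD-Sen and 334 and 355 in Ca-Sen on day 1, and on day 2 568 and 475 in PMD-Sen and 138 and 92.0 in Ca-Sen. Its difference went from -1.23 ± 0.23 to 2.19 ± 0.24, a change of 3.42 ± 0.33 (adjusted p = 0.00064), and the day 1 call was lost without the deeper PMD-Sen day 1 library (adjusted p = 0.058). TGFB2, a transforming growth factor beta ligand, was 3.14-fold lower after SDS on day 1, with 166 and 123 against 466 and 470.0 normalised reads (-1.65 ± 0.22, adjusted p = 0.00042), and on day 2 it had 504 and 695 against 647 and 725 (-0.22 ± 0.13, adjusted p = 0.26). CCN2, a connective tissue growth factor without a single split, had means of 10614 against 16960 on day 1 and 16433 against 16073 on day 2.

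Genes of the TGF-beta and BMP pathways were mixed on day 1 and mostly higher after SDS on day 2. Of 26 listed, 21 were tested, with 3 higher and 6 lower on day 1 (median 0.04) and 12 higher and 3 lower on day 2 (median 0.45), or 7 higher on day 2 without the shallower Ca-Sen library. ID1, an inhibitor of differentiation induced by BMP receptors, had 3836 and 2823 against 1014 and 667 normalised reads on day 2 (1.99 ± 0.30, adjusted p = 0.0015), while its day 1 values were 5499 and 5108 against 3237 and 4123 (0.55 ± 0.25, adjusted p = 0.13). On day 2 the SDS libraries lay above both untreated values of 989.7 and 2282, and each KCl library lay below at least 1 of them. The ligand BMP2 turned the other way. It had 614 and 804 against 298 and 292 on day 1 (1.21 ± 0.17, adjusted p = 0.00054) and 288 and 239 against 369 and 445 on day 2 (-0.61 ± 0.17, adjusted p = 0.029), where the call was lost without either PMD-Sen day 2 library or the shallower Ca-Sen one (adjusted p = 0.06, 0.12 and 0.20). BMP4, a related ligand, was lower after SDS on day 2, with 272 and 374 against 811 and 1071 (-1.56 ± 0.21, adjusted p = 0.00085).

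Targets of p53 were lower after SDS than after KCl on day 1. Of 29 listed, 26 were tested, and 18 were lower and none higher on day 1 (median -0.31). Against untreated cells their median was -0.20 in PMD-Sen and 0.19 in Ca-Sen, with no test of either. On day 2, 5 were higher and 7 lower (median 0.04), and the change was called for 12, all rises (median 0.33). Without 1 library the day 1 count was 12 to 18. The change count became 7 without the deeper PMD-Sen or the shallower Ca-Sen day 1 library. The day 2 counts rest on single libraries: without the deeper PMD-Sen, the deeper Ca-Sen or the shallower Ca-Sen day 2 library they were 1, 2 and 1 higher, and 2, 4 and 1 lower.

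GDF15, a circulating stress hormone, was lower after SDS on both days, at 976 and 1175 against 2477 and 2699.6 normalised reads on day 1 (-1.29 ± 0.08, adjusted p = 7.6e-06) and 1024 and 941 against 2055 and 2041 on day 2 (-1.06 ± 0.08, adjusted p = 9.6e-05). The SDS libraries lay near the untreated values of 1134 and 1039.8, and the KCl libraries lay above them. FDXR, a mitochondrial ferredoxin reductase, differed mainly on day 1, at 699 and 765 against 1609.7 and 1884 (-1.26 ± 0.10, adjusted p = 2.6e-05). BTG2, an antiproliferative gene, had 582 and 513 against 1083 and 1073 on day 1 (-0.96 ± 0.10) and a change of 0.75 ± 0.14 (adjusted p = 0.0092). MDM2, the ubiquitin ligase that limits p53, was at 3076 and 2912 against 4624 and 4388 on day 1 (-0.59 ± 0.05). CDKN1A, which encodes the CDK inhibitor p21 and has no single split, had means of 21227 in PMD-Sen and 32860 in Ca-Sen on day 1, and of 31264 and 32736 on day 2. Its mean in untreated cells was 24360. The targets higher after SDS on day 2 differed by at most 0.28. RRM2B, a ribonucleotide reductase subunit, had 4638 and 4456 against 3738 and 3765 (0.28 ± 0.06, adjusted p = 0.0077), and POLH, a translesion polymerase, had 2893 and 2884 against 2409 and 2455 (0.25 ± 0.05).

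Genes of the integrated stress response were lower after SDS on both days. Of 30 listed, 26 were tested, with 18 lower on day 1 (median -0.61) and 19 lower on day 2 (median -0.46), and none higher on either day. Relative to untreated cells the median was -0.52 in PMD-Sen and -0.01 in Ca-Sen on day 1, and -0.68 and -0.30 on day 2. The day 2 count fell to 10 without the shallower PMD-Sen and to 8 without the shallower Ca-Sen day 2 library, and was 12 with limma-trend and a pseudocount of 5. DDIT3, the factor CHOP, had 107 and 79.1 against 279 and 277 normalised reads on day 1 (-1.53 ± 0.14, adjusted p = 5.3e-05) and 146 and 143 against 253 and 258 on day 2 (-0.82 ± 0.11, adjusted p = 0.00096). Its KCl libraries of both days lay near the untreated values of 273 and 254. ATF4, the master factor of the response, was at 2837 and 3002 against 4694 and 4928 on day 1 (-0.72 ± 0.05) and 3635 and 3679 against 4831 and 5010.4 on day 2 (-0.43 ± 0.05). ALDH1L2, of mitochondrial folate metabolism, differed by -1.36 ± 0.15 and -0.98 ± 0.14, and PSAT1, of serine synthesis, by -1.21 ± 0.22 and -1.09 ± 0.21, the latter with adjusted p = 0.0052, or 0.056 without the shallower Ca-Sen day 2 library. The letters TGATGNAA, a core of the element that ATF4 binds, occurred in the 250 bases before the start of 3 of the 25 listed genes with a promoter entry (ASNS, CHAC1 and FGF21), and in 870 of 27305 promoters (3.19%).

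**Figure D3:**
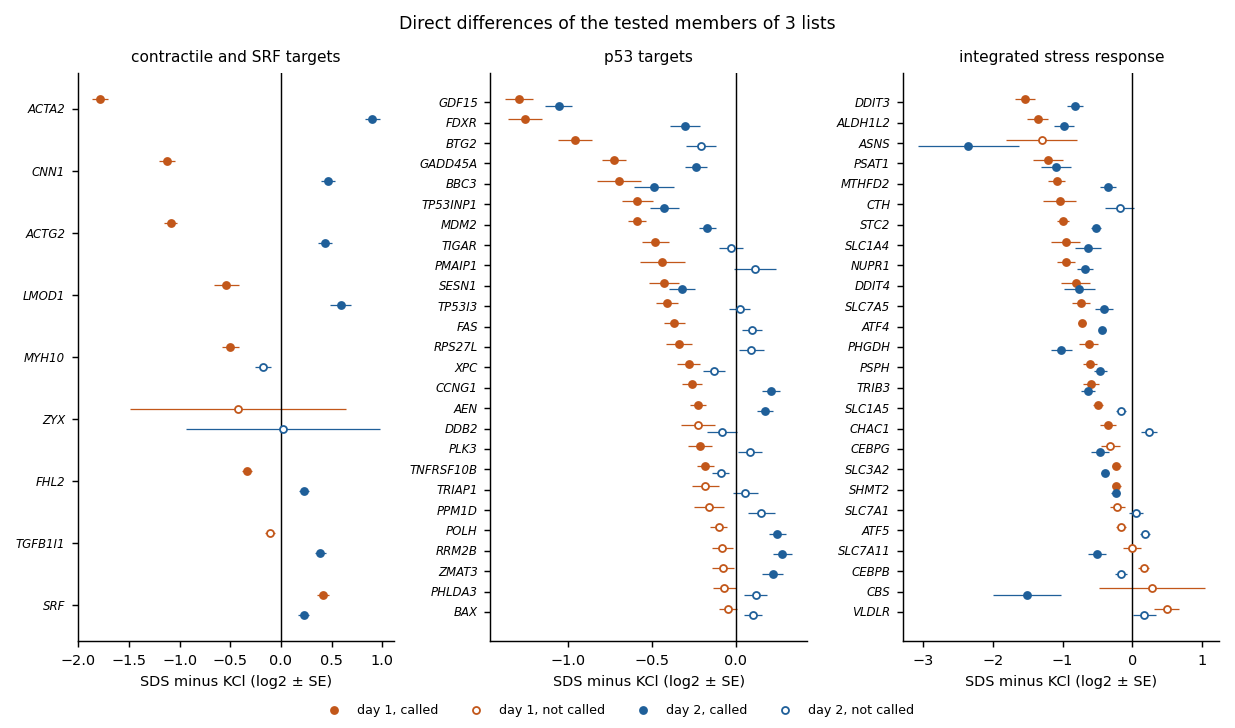
SDS minus KCl log2 differences with SE of every tested member of the contractile, p53 and integrated stress response lists, day 1 in orange and day 2 in blue, filled where called. Most contractile genes lie left of 0 on day 1 and right of 0 on day 2, p53 targets move from the left to both sides of 0, and most genes of the integrated stress response stay left of 0.

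Chaperones of the endoplasmic reticulum and targets of its unfolded protein response shared this direction. Of 24 listed, 20 were tested, with 13 lower on day 1 (median -0.36) and 11 lower on day 2 (median -0.25), and none higher. These counts were 10 to 13 and 8 to 11 without any 1 library. XBP1, a factor of the response, had 1196 and 1340.2 against 2795 and 2811 normalised reads on day 1 (-1.16 ± 0.07, adjusted p = 6.7e-06) and 2063 and 2230.3 against 2722 and 2748 on day 2 (-0.35 ± 0.07, a call lost without the deeper PMD-Sen day 2 library at adjusted p = 0.053), a change of 0.81 ± 0.10 (adjusted p = 0.0015). CRELD2 and SDF2L1, secretory pathway chaperones, differed by -0.95 and -0.97 on day 1 and by -0.70 and -0.62 on day 2. HSPA5, the chaperone BiP, has no single split, and its means were 12840 against 30614 on day 1 and 19061 against 30669 on day 2, with 34624 in untreated cells. Aminoacyl-tRNA synthetases, which load amino acids for translation, had 10 of 19 tested members lower and 1 higher on day 1 (median -0.21), and 5 lower and 3 higher on day 2 (median -0.02). The 5 became 2, 3 and 1 without the deeper PMD-Sen, the shallower PMD-Sen or the shallower Ca-Sen day 2 library.

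Cytosolic heat shock genes went the other way. Of 24 listed, 15 were tested, with 8 higher and 3 lower on day 1 (median 0.20) and 11 higher and 1 lower on day 2 (median 0.31). The higher counts were 5 without the deeper Ca-Sen day 1 library and 7 without the shallower Ca-Sen day 2 library. DNAJB1, an HSP40 cochaperone, had 7022 and 7349 against 4395 and 4561 normalised reads on day 1 (0.68 ± 0.05, adjusted p = 1.6e-05) and 6162 and 5879.9 against 4717 and 4599.6 on day 2 (0.37 ± 0.05). HSPH1, an HSP110 chaperone, differed by 0.58 ± 0.06 and 0.44 ± 0.06. The small heat shock protein CRYAB was an exception on day 1, at 531 and 511 against 1278 and 1384 (-1.34 ± 0.14, adjusted p = 0.00010), and had 822 and 796 against 816 and 658 on day 2. Targets of NRF2, the factor of the antioxidant response, were higher for 9 and lower for 1 of 21 tested on day 1 (median 0.26), and higher for 6 and lower for 3 on day 2 (median 0.10). Without the deeper PMD-Sen day 1 library 5 were higher on day 1, and without the deeper PMD-Sen or the shallower Ca-Sen day 2 library 2 were higher on day 2. AKR1C1, an aldo-keto reductase whose reads may be shared with its close paralogs, had 3962 and 3309 against 744 and 892 on day 1 and 892 and 805 against 442 and 396 on day 2, with 596 and 652 in untreated cells. Its differences were 2.17 ± 0.11 and 1.02 ± 0.14 (adjusted p = 2.3e-06 and 0.00078).

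Most called collagen genes were lower after SDS than after KCl on both days. Of 23 collagen genes, 13 were tested, with 7 lower and 2 higher on day 1 (median -0.59) and 11 lower and 1 higher on day 2 (median -0.66). The 7 became 4 without the shallower PMD-Sen or the deeper Ca-Sen day 1 library, and the 11 became 6 without the deeper PMD-Sen and 7 without the shallower Ca-Sen day 2 library. Of the 10 without a single split, the ratio of means was below 0 for 9 on day 1 and for 10 on day 2. Over all 285 genes without a single split, the ratio was below 0 for 143 on day 1 and for 112 on day 2. COL1A1, the main chain of fibrillar type I collagen, had a mean of 123929 in PMD-Sen against 294575 in Ca-Sen on day 1 and of 123940 against 293399 on day 2, with 333744 in untreated cells. COL3A1 had 9714 against 29398 and then 13015 against 30147. The partner chain COL1A2 did not show this gap on day 1, with 139353 against 145827, and had 114369 against 183182 on day 2. COL5A1, a fibril-starting chain, was tested and had 7051 and 6327 against 12904 and 11869 on day 1 (-0.89 ± 0.11, adjusted p = 0.00026) and 6521 and 7374 against 11240.3 and 12514 on day 2 (-0.78 ± 0.11, adjusted p = 0.00095). COL7A1, of anchoring fibrils, differed on day 2, at 2049.5 and 1803 against 4118 and 3677 (-1.02 ± 0.11), while its day 1 difference was -0.22 ± 0.10 (adjusted p = 0.14), and the change was called (adjusted p = 0.0091).

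Elastic fibre and matricellular genes, 21 tested of 31, had 14 lower and none higher on day 1 (median -0.49), and 15 lower and 1 higher on day 2 (median -0.56). Without any 1 library the lower counts were 11 to 15 on both days. ELN, the elastin precursor (chr7:74028173-74069907), showed the largest decrease of day 1 among the genes described, with 38.3 and 29.7 normalised reads in PMD-Sen against 561 and 481 in Ca-Sen and 243 and 415 in untreated cells (-3.89 ± 0.35, adjusted p = 4.5e-05). On day 2 it had 72.9 and 80.3 against 124 and 93.1 (-0.51 ± 0.28, adjusted p = 0.23). From day 1 to day 2 the KCl libraries went down and the SDS libraries went up, and both groups of day 2 lay below the untreated libraries. POSTN, periostin, was lower on both days (-1.40 ± 0.15 and -1.82 ± 0.15), at 436 and 430.4 against 1325 and 1787 on day 2. LUM, a collagen-binding proteoglycan, had 1562 and 1202 against 4974 and 4717 on day 1 and 1297 and 1954 against 5193 and 5767 on day 2, and its difference was -1.79 on both days. Enzymes that modify and cross-link collagen, 19 tested of 23, had 12 lower and 5 higher on day 1 and 13 lower and none higher on day 2. The 5 became 0, 3 and 1 without the deeper PMD-Sen, the deeper Ca-Sen or the shallower Ca-Sen day 1 library, and the 13 became 8 without the deeper PMD-Sen day 2 library. P4HA1, a prolyl hydroxylase subunit, differed by -0.74 ± 0.06 and -0.71 ± 0.06, and the lysyl oxidase LOXL3 by -1.04 ± 0.15 on day 1.

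Matrix proteases and their inhibitors did not share 1 direction. Of 22 listed, 10 were tested, with 4 higher and 3 lower on day 1 and 2 higher and 3 lower on day 2. The 4 became 1 or 2 without any 1 of the 4 day 1 libraries. The collagenase MMP1 and the inhibitor TIMP1 have no single split. MMP1 had a mean of 56239 in PMD-Sen against 13702 in Ca-Sen on day 1 and 20609 against 8677 on day 2, with 5322 in untreated cells, and TIMP1 had 56213 against 31202 and then 45093 against 28223. The aggrecanase ADAMTS5 was lower after SDS, at 110.4 and 119 against 235 and 217 normalised reads on day 1 (adjusted p = 0.00045) and 215 and 243 against 421 and 439.7 on day 2 (-0.92 ± 0.09).

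**Figure D4:**
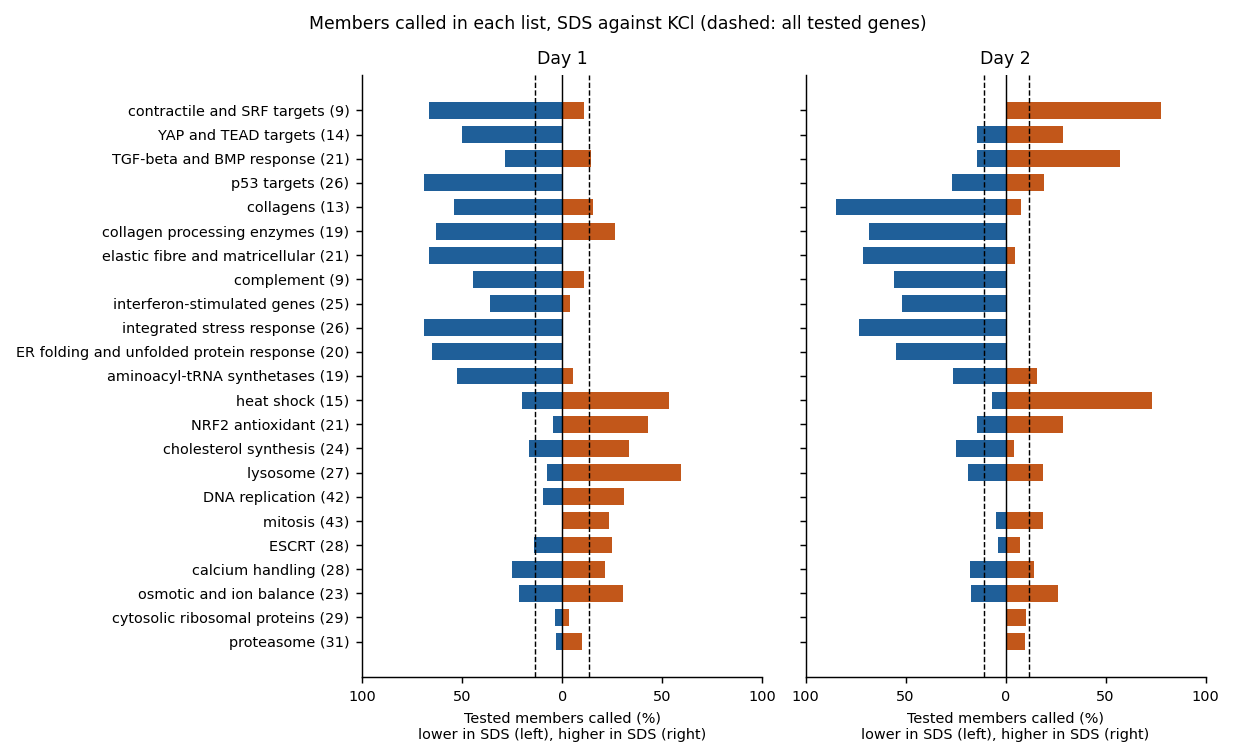
Share of tested members called lower (blue, left) and higher (orange, right) after SDS than after KCl on day 1 and day 2, in 23 lists with the number tested in brackets, and dashed lines at the shares over all tested genes. Calls of contractile genes change sides between the days, those of matrix and integrated stress response lists lie mostly on the left, and those of heat shock genes mostly on the right.

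Insulin-like growth factor binding proteins and secreted growth factors held several of the large differences. IGFBP3, the main carrier of insulin-like growth factors, had 9516 and 8302 normalised reads in untreated cells, 1571 and 1423 in PMD-Sen and 10122 and 9424 in Ca-Sen on day 1, and on day 2 4707 and 5362 in PMD-Sen and 5249 and 5059.6 in Ca-Sen. It was 6.49-fold lower after SDS on day 1 (-2.70 ± 0.09, adjusted p = 9.3e-08), and on day 2 the libraries of the groups overlapped (-0.04 ± 0.08, adjusted p = 0.76). The change of 2.66 ± 0.12 was called (adjusted p = 1.3e-06). IGFBP2 was lower on both days (-1.25 ± 0.18 and -1.45 ± 0.15), as was IGFBP6 (-0.60 ± 0.10 and -0.68 ± 0.09), and IGFBP5, which has no single split, had means of 43271 against 114594 and then 50072 against 115847. Of 11 listed, 7 were tested, with 5 lower and 1 higher on day 1, or 3 lower without the shallower Ca-Sen day 1 library, and 2 lower and 2 higher on day 2. Among 20 tested growth factors, 9 were lower and 5 higher on day 1 and 8 lower and 5 higher on day 2. The lower counts were 4 and 3 without the deeper PMD-Sen or the deeper Ca-Sen day 1 library, and 5 without the deeper PMD-Sen day 2 library. HGF, hepatocyte growth factor, had 2566 and 3199.8 against 6589.6 and 8629.9 on day 2 (-1.40 ± 0.13, adjusted p = 0.00016). The EGF receptor ligand AREG stood higher after SDS on day 1, at 325 and 490.0 against 125 and 131 (1.57 ± 0.23, adjusted p = 0.00079).

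Nearly all called interferon-stimulated genes and complement genes were lower after SDS, though many were not called. Of 31 interferon-stimulated genes, 25 were tested, with 9 lower and 1 higher on day 1 (median -0.30) and 13 lower and none higher on day 2 (median -0.65). The 13 became 5 without the deeper PMD-Sen day 2 library, 7 without either Ca-Sen day 2 library, and 8 with limma-trend at either pseudocount. IFITM1 and IFITM2, membrane proteins that hinder virus entry and whose reads may be shared, differed by -1.11 ± 0.16 and -1.10 ± 0.10 on day 1 and by -1.19 ± 0.14 and -0.81 ± 0.09 on day 2. IFI6 had 389.6 and 386 against 947 and 852 normalised reads on day 1 and 272 and 513 against 927 and 962 on day 2 (-1.38 ± 0.20, adjusted p = 0.0013). Of 9 tested complement genes, 4 were lower and 1 higher on day 1, and 5 lower and none higher on day 2. C1S, a protease of the classical pathway, had 4085 and 3833 against 7513 and 7147 on day 1 (-0.89 ± 0.09) and 3202 and 3869.6 against 6999 and 7759 on day 2 (-1.07 ± 0.09, adjusted p = 0.00011).

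Inflammatory mediators were more divided. The NF-kB list held feedback genes and other targets, such as PTGS2 and VCAM1. Of its 21 tested genes, 7 were lower and 3 higher on day 1, and 6 lower and 2 higher on day 2. Without the deeper PMD-Sen or the deeper Ca-Sen day 1 library 4 were lower on day 1, and without the deeper PMD-Sen day 2 library 3 were lower on day 2. PTGS2, the inducible cyclooxygenase, was among the higher genes, with 316 and 221 against 41.3 and 35.3 normalised reads on day 2 (2.79 ± 0.39, adjusted p = 0.0011), and the adhesion molecule VCAM1 among the lower ones, with 28.7 and 96.2 against 231 and 388 (-2.58 ± 0.49, adjusted p = 0.0047, or 0.052 without the deeper PMD-Sen day 2 library). IL13RA2, a decoy receptor for interleukin 13, was higher after SDS on both days, at 1068 and 876 against 199.9 and 226 on day 1 (2.22 ± 0.14, adjusted p = 6.3e-06) and 375 and 425 against 103 and 86.7 on day 2 (2.06 ± 0.20). The chemokine CXCL12 was higher on day 2, at 434 and 318 against 160.4 and 141 (1.31 ± 0.19, adjusted p = 0.0012). IL6 and CXCL8, widely used markers of the senescent secretome, were not called on either day. IL6 had 29.1 and 53.7 against 47.2 and 53.1 on day 1, and CXCL8, which differed more than 4-fold between the libraries of at least 1 group, had 79.0 and 287 against 149 and 175. CCL2, a further marker, had 449 and 518 against 324 and 285 on day 1 (0.63 ± 0.19, adjusted p = 0.034), a call that was lost without any 1 of the 4 libraries of that day (adjusted p = 0.065 to 0.15).

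Lysosomal genes were higher after SDS on day 1. Of 30 listed, 27 were tested, with 16 higher and 2 lower on day 1 (median 0.28), and 5 higher and 5 lower on day 2 (median -0.02). Without any 1 library 12 to 16 were higher on day 1, and scaling by library totals or the upper quartile gave 3 higher and 8 lower on day 2. The change was called for 12, all falls, and for 4 to 7 without any 1 of the 8 treated libraries other than the shallower PMD-Sen day 1 and day 2 ones. CTSL, the cysteine protease cathepsin L, had 9185 and 9216 against 5469.8 and 5288 normalised reads on day 1 (0.77 ± 0.04, adjusted p = 4.6e-06) and 4399 and 4489.7 against 4521 and 4470.1 on day 2 (-0.02 ± 0.05), near the untreated 4645 and 4898. GLA, alpha-galactosidase A, had 1678 and 1607 against 818 and 821 on day 1 (1.01 ± 0.10, adjusted p = 6.4e-05). Cathepsin K, encoded by CTSK and the chief collagen-degrading cathepsin, was lower on both days, at 1998 and 2117 against 3572 and 3692 (-0.82 ± 0.05) and 2029 and 2067 against 3354 and 3508 (-0.74 ± 0.05).

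Lipid synthesis genes shifted between the days by small amounts. Of 24 tested cholesterol synthesis genes, 8 were higher and 4 lower on day 1 (median 0.20), and 1 was higher and 6 lower on day 2 (median -0.12). The change was called for 7, 1 rise and 6 falls. These counts are unstable: without 1 library of day 1 the 8 became 1 to 4, with limma-trend 4 or 5, and without 1 library of day 2 the 6 became 2 or 3. TM7SF2, a sterol reductase, was lower on both days (-1.31 ± 0.19 and -1.18 ± 0.15).

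Cell cycle genes differed less between the inducers than either differed from untreated cells, by their medians. Over all tested genes 13.3% were called higher and 13.7% lower on day 1, and 11.6% and 10.7% on day 2. Of 42 tested DNA replication genes, 13 were higher and 4 lower on day 1 (median 0.22), and none was called on day 2 by limma with voom or limma-trend, where 6 had an unadjusted p under 0.05. Of 43 tested mitosis genes, 10 were higher on day 1 (median 0.26), and 8 were higher and 2 lower on day 2 (median 0.17). The medians against untreated cells were -0.44 and -0.43 in PMD-Sen and -0.65 and -0.77 in Ca-Sen on day 1. Without the shallower PMD-Sen, the deeper Ca-Sen or the shallower Ca-Sen day 1 library the 13 became 5, 4 and 6 and the 10 became 3, 6 and 2, and without the deeper PMD-Sen, the deeper Ca-Sen or the shallower Ca-Sen day 2 library the 8 became 0, 1 and 3. TYMS, thymidylate synthase, was lower after SDS on day 1, at 294 and 322 against 516 and 551 normalised reads and 1053 and 1007 in untreated cells (-0.80 ± 0.11, adjusted p = 0.00040). MKI67, the proliferation marker, had 2257 and 2748 against 2143 and 1924 on day 1 and 2929.8 and 2269 against 2358 and 2868 on day 2, against 5510.2 and 4321 in untreated cells, and was not called on either day. The same was true of LMNB1, the lamin lost in senescence, at 513 and 575 against 501 and 469 and 493 and 506 against 561 and 729.7, and of CDKN2A, which encodes p16, at 877 and 946 against 869 and 922 and 807 and 921 against 927 and 942.

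Membrane repair, calcium and osmotic genes were chosen because the inducers act on the membrane and on ions. Their calls stand against 13.3% higher and 13.7% lower over all tested genes on day 1, and 11.6% and 10.7% on day 2. Of 28 tested ESCRT genes, whose products pinch off damaged membrane, 7 were higher and 4 lower on day 1 (median 0.05), and 2 higher and 1 lower on day 2 (median 0.08). In a fit of only the libraries compared, the 4 lower on day 1 became 2. Without 1 of the 4 day 1 libraries 2 to 4 were higher on day 1. CHMP4B, a filament-forming ESCRT-III subunit, had 3373 and 3238 against 3485 and 3633 normalised reads on day 1 and 3414 and 3636 against 3430.2 and 3299 on day 2, with differences of -0.10 ± 0.05 and 0.07 ± 0.05 (adjusted p = 0.18 and 0.40). ANXA2, an annexin that binds calcium and damaged membrane and has no single split, had means of 67453 against 65735 and of 80766 against 73134. Of 28 tested calcium handling genes, 6 were higher and 7 lower on day 1, and 4 higher and 5 lower on day 2. With library totals, the upper quartile or limma-trend at either pseudocount, the 4 higher on day 2 became 2. The 6 became 2 and 3 without the deeper PMD-Sen or shallower Ca-Sen day 1 library, the 7 became 4 without any other day 1 library than the deeper PMD-Sen one, and the 4 became 1 or 2 without any 1 day 2 library. ITPR3, a calcium release channel of the endoplasmic reticulum, was higher after SDS on day 1, at 3466 and 3834 against 1439 and 1422 with 1343 and 1148 in untreated cells (1.34 ± 0.08, adjusted p = 4.6e-06), and its difference shrank by day 2 (change -1.06 ± 0.11, adjusted p = 0.00085). SLC8A1, the sodium-calcium exchanger, was lower on both days (-0.78 ± 0.12 and -0.57 ± 0.10).

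Among 23 tested osmotic and ion balance genes, 7 were higher and 5 lower on day 1 and 6 higher and 4 lower on day 2. The 5 became 3 without either Ca-Sen day 1 library, and the 4 became 1 without the deeper PMD-Sen or the shallower Ca-Sen day 2 library. AKR1B1, the aldose reductase that makes sorbitol under salt stress, was above the untreated 5872 and 8417 normalised reads in all 8 treated libraries. It was lower after SDS than after KCl on day 1, at 17359.5 and 18412 against 31248 and 34849 (-0.88 ± 0.12, adjusted p = 0.00041), and had 13295 and 12943 against 12789 and 11359 on day 2 (0.12 ± 0.12, adjusted p = 0.50). SLC6A6, the taurine transporter, was higher after SDS on both days, at 2567 and 2329 against 1636 and 1635 (0.59 ± 0.06) and 2209.7 and 2075 against 1156 and 1210.1 (0.86 ± 0.06, adjusted p = 8.2e-05), and the KCl libraries of both days lay below the untreated 2516 and 2531. NFAT5, the tonicity-responsive factor, differed by 0.29 ± 0.08 on day 1 (adjusted p = 0.022, or 0.08 to 0.15 without either PMD-Sen or the shallower Ca-Sen library of that day). The calcineurin feedback gene RCAN1 had 2377 and 2768 against 3546 and 3674 on day 1 (-0.50 ± 0.09, adjusted p = 0.0029).

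Proteasome and ribosomal protein genes held few calls, against background shares of 27.0% and 22.3%. Of 31 tested proteasome genes, 3 were higher and 1 lower on day 1, and 3 higher and none lower on day 2. Of 29 tested cytosolic ribosomal protein genes, 1 was higher and 1 lower on day 1, and 3 higher and none lower on day 2, with medians of 0.04 and 0.08. Both tested mitochondrially encoded genes, MT-ATP8 and MT-ND3, were higher on both days. Without the deeper PMD-Sen or the shallower Ca-Sen library of the day neither was called (adjusted p = 0.098 to 0.15 on day 1 and 0.067 to 0.30 on day 2). For the 11 others, without a single split, the ratio of means was above 0 for 11 on day 1 and for 7 on day 2. Over all 285 genes without a single split, the ratio was above 0 for 142 on day 1 and for 173 on day 2.

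The remaining lists were mostly small or divided, and their calls stand against the background shares of 13.3% higher and 13.7% lower on day 1 and 11.6% and 10.7% on day 2. Of 26 tested immediate early genes, 6 were higher and 2 lower on day 1 and 4 higher and 3 lower on day 2, and the 6 became 15, 2, 1 and 2 without the deeper PMD-Sen, shallower PMD-Sen, deeper Ca-Sen or shallower Ca-Sen day 1 library, and the 4 became 0 and 1 without the deeper PMD-Sen or the shallower Ca-Sen day 2 library. FOS, a subunit of AP-1, had 33.0 and 222 against 28.3 and 42.2 normalised reads on day 1 and was not called on either day. EGR1, a zinc finger factor, had 649 and 541 against 1125 and 1251 on day 2 (-0.99 ± 0.25, adjusted p = 0.017, or 0.058 to 0.10 without either PMD-Sen or the shallower Ca-Sen day 2 library). HMOX1, heme oxygenase 1, had 1179 and 1018 against 1269 and 1490.0 on day 1 and was not called on either day. Of 20 tested senescence regulators, 5 were higher and 3 lower on day 1 and 3 higher and 2 lower on day 2, and the 5 became 2 or 3 without any 1 day 1 library. Interleukins and receptors, with 15 tested, were divided on day 1, at 3 higher and 3 lower. On day 2 most of their calls were lower, at 7 lower and 1 higher (median -0.40). Laminins had 2 of 8 higher on day 1 and 3 of 8 lower on day 2, and fatty acid synthesis genes had 2 of 14 higher on day 1 and 1 higher and 5 lower on day 2, or 2 lower without the deeper PMD-Sen or the shallower Ca-Sen day 2 library. Chemokines had 1 of 7 higher and 2 lower on day 1 and 1 of each on day 2, and genes of MHC class I presentation had 1 of 7 higher and 2 lower on day 1 and 2 lower on day 2. Of 3 tested metallothioneins 2 were lower on day 1, or 0 to 2 without any 1 library. Of 14 annexins, ferlins and calpains 4 were higher and 1 lower on day 1 and 2 higher and 1 lower on day 2, and the 4 became 2, 1 and 1 without the deeper PMD-Sen, the shallower PMD-Sen or the deeper Ca-Sen day 1 library.

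**Figure D5:**
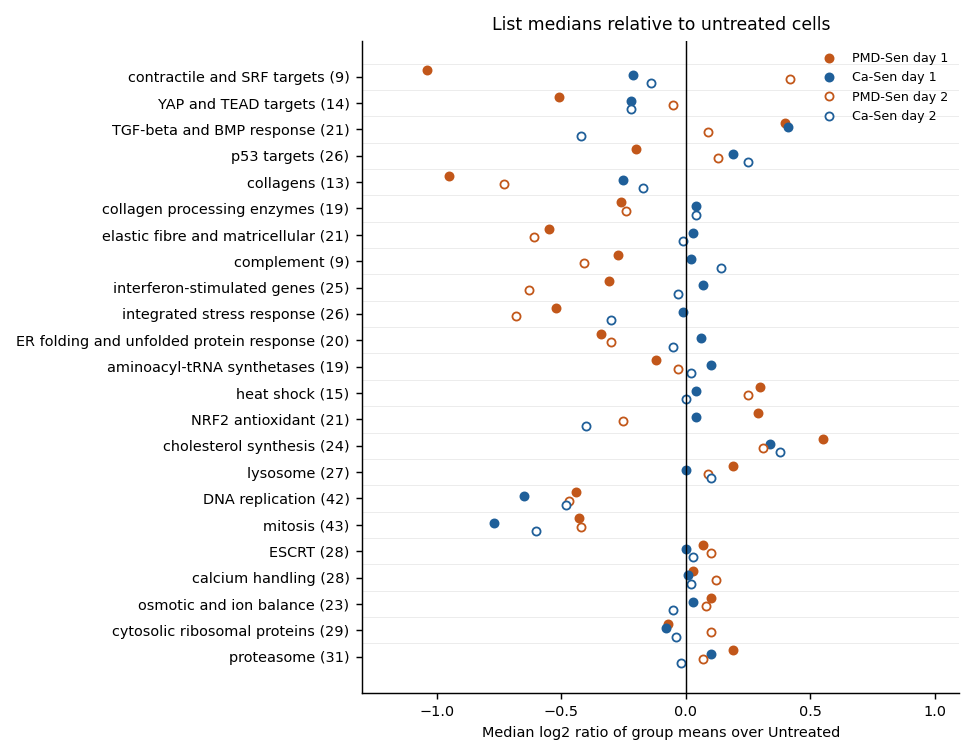
Median log2 ratio of group means over untreated cells of the tested members of 23 lists (number in brackets), with SDS in orange and KCl in blue, filled for day 1 and open for day 2. For interferon-stimulated and endoplasmic reticulum genes the KCl medians lie near 0 and the SDS medians below it, for collagens all 4 lie below 0 with the SDS medians lowest, and for contractile genes the 2 SDS medians lie at -1.04 and 0.42.

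Among other genes with large differences, libraries of 1 group lay close together for some and far apart for others. SLC6A15, an amino acid transporter, was higher after SDS on day 1, at 2100.4 and 2387 against 347 and 398 normalised reads and 177 and 200.2 in untreated cells (2.59 ± 0.21, adjusted p = 2.6e-05). PRSS3, a trypsinogen, was higher on both days (2.09 ± 0.24 and 2.50 ± 0.34), at 182 and 144 against 32.7 and 24.6 on day 2. Among genes lower after SDS, RARRES2, the adipokine chemerin, had 21.5 and 42.4 against 199.9 and 229.6 on day 1 (-2.91 ± 0.27) and 27.6 and 35.3 against 138 and 160.5 on day 2 (-2.26 ± 0.24, adjusted p = 0.00028). SRGN, the proteoglycan serglycin, had 52.9 and 38.1 against 335 and 345 and then 63.5 and 80.3 against 236 and 262, and KISS1, the kisspeptin precursor, had 39.9 and 55.1 against 276 and 335 and then 104 and 114 against 254 and 193. For both, the SDS libraries of day 1 lay near or below the untreated values (91.6 and 75.3 for SRGN, 54.1 and 45.9 for KISS1) and the KCl libraries lay above them. TMEM176A and TMEM176B, neighbouring membrane protein genes whose reads may be shared, differed by -2.19 and -2.59 on day 2. Some large values of day 1 were less certain: GTF2H1, RNF187, EIF5A and PSMB3 each differed more than 4-fold between the libraries of at least 1 group. GTF2H1, a subunit of transcription factor TFIIH, had 994 and 812 against 33.8 and 191 on day 1 (3.68 ± 1.19, adjusted p = 0.041), but 330.4 and 1038 in the 2 untreated libraries and 51.9 and 518 in those of PMD-Sen day 2, and its call was lost without any 1 of the 4 libraries of day 1 (adjusted p = 0.073 to 0.26).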

How the data were processed

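Libraries were grouped by the submitters' titles. Per the labels, the authors trimmed reads with Trim Galore, aligned them with HISAT2 to GRCh38 (hg38), counted them per gene with HTSeq or featureCounts, and compared groups with DESeq2, with no versions given. Each deposited table gives for every gene a signal, the mean of normalised counts over 2 treated and 2 untreated libraries, beside the authors' own fold changes, standard errors and p-values, which were not used. Since such a mean is a sum of 4 whole numbers of reads, each divided by its library's size factor, the reads were solved for, those of the untreated libraries jointly over 10 tables kept to 15 digits. The PMD-Sen day 1 table has 10 digits, which left 285 members without a single split. Untreated reads from separate sets of tables were the same for 14109 and 14115 of 14115 members. One row that names no gene (0.00151 to 0.00195% of the summed mean of the 4 tables) was left out.

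Reads were scaled by the median of ratios and fitted with voom and limma 3.58.1 in R 4.3.3 over 10 libraries in 5 groups, with p-values adjusted by Benjamini-Hochberg over 13830 genes. edgeR was not used, a choice made because the deposited files hold no counts. It was not tried on the recovered reads either. Solver and fit were tested on simulated data. Other scalings, filters, limma-trend on log2 CPM with pseudocounts of 1 and 5, robust moderation, fits on fewer groups and leaving out each library were tried. Figures used Python 3.11.15 and matplotlib 3.10.9.

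The members, 43 gene lists and tests were chosen with earlier results of these data known. Genes were named by rule: per day and direction the 8 largest differences without overlap of libraries, the 4 largest changes in each direction, up to 4 genes per list with the largest difference, all with a mean of at least 100 normalised reads, and 21 genes whatever their values, of which some are not reported here. SRF, FHL2, ATF4, MDM2, RRM2B and POLH, and abundant list members without a single split, were chosen after their values were seen. RefSeq positions are on GRCh38.p14, promoters too. Whether counting used strand is not given in the sources used here.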

Additional observations from a re-analysis of the deposited data

Results flagged for a closer look

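The SDS minus KCl difference itself differed between day 1 and day 2, by its own test in the same limma fit, for 1225 genes. Of the 8 named by the rule, those with the largest falls from day 1 to day 2 were PRXL2B, a redox protein (-4.31), the ligand BMP2 (-1.82), the noncoding gene AC097451.1 (-1.81) and SLC16A6, a transporter of the monocarboxylate family (-1.79). Those with the largest rises were MLLT6, a chromatin-binding protein (3.75), ANKRD1 (3.42), ELN (3.39) and ACTA2 (2.69). PRXL2B differed more than 4-fold between the untreated libraries (221 and 12.9 normalised reads). It had 348 and 261 in PMD-Sen and 215 and 209 in Ca-Sen on day 1, and 30.4 and 20.1 against 306 and 389 on day 2, and its call in the change was lost with robust moderation (adjusted p = 0.071). MLLT6 had 69.0 and 77.7 against 223 and 129.9 on day 1 and 97.2 and 159.9 against 19.2 and 24.6 on day 2. With 1 library left out, its difference ran from -1.62 to -0.85 on day 1 and from 2.14 to 2.86 on day 2. AC097451.1 differed on day 1 alone by value, at 1341 and 1164 against 412 and 349, with 170.1 and 147 against 177 and 160.5 on day 2. SLC16A6 had 375 and 460.4 against 237 and 188 and then 109 and 71.3 against 144 and 193, and its change was not called without the shallower Ca-Sen day 1 or day 2 library (adjusted p = 0.053 and 0.068).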

How the results depend on the processing

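Requiring a log2 difference of at least 1 in size left 416 calls on day 1, 300 on day 2 and 146 in the change. Without 1 library the counts were 1928 to 3841 on day 1, 1126 to 3191 on day 2 and 474 to 1402 in the change, since a group is then left with 1 library, assumed to vary like the others. These 3 counts over all genes moved by less than 1.5 times under the other scalings, filters and models, while counts within several lists moved by more, also without leaving out a library. No called difference of a named gene changed sign under an alternative, while differences that were not called did for some genes. Scaling by library totals turned which direction was more common on day 1 (2063 higher, 1722 lower), on day 2 (1259 and 1644) and in the change (547 and 668). No paired analysis was possible because the recovered libraries carry no replicate numbers. Depth limits low genes, and the reads of abundant genes in PMD-Sen day 1 are limited by the digits deposited.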

Other observations

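Replication-dependent histone genes, whose main transcripts in dividing cells carry no poly(A) tail and which have near-identical copies, did not share 1 direction. H1-2, a linker histone, had 505 and 665 normalised reads in untreated cells, 1158 and 1001 in PMD-Sen and 2990.3 and 3481 in Ca-Sen on day 1, and on day 2 940.0 and 1072 in PMD-Sen and 1683 and 1378 in Ca-Sen. All 8 treated libraries lay above both untreated ones, and the SDS minus KCl difference was -1.56 ± 0.12 on day 1 (limma adjusted p = 2.0e-05). H2BC11 went the other way on day 1, at 187 and 178 against 78.7 and 95.3 (adjusted p = 0.0022). Of 14 tested histone genes, 3 were higher and 2 lower on day 1 and 5 higher and 1 lower on day 2. Over all tested genes the shares were 13.3% and 13.7%, and then 11.6% and 10.7%. The 5 became 1, 3 and 0 without the deeper PMD-Sen, the deeper Ca-Sen or the shallower Ca-Sen day 2 library.

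Of 27 tested genes of glycolysis and hypoxia, 5 were higher and 7 lower on day 1, and 8 higher and 5 lower on day 2. Over all tested genes the shares were 13.3% and 13.7% on day 1, and 11.6% and 10.7% on day 2. Without the deeper Ca-Sen day 1 library 3 were higher on day 1, and without the deeper PMD-Sen, the deeper Ca-Sen or the shallower Ca-Sen day 2 library 3, 5 and 3 were higher and 3 lower on day 2. ALDOC, the brain aldolase, was lower after SDS on both days, at 181 and 154 against 462 and 495 normalised reads (-1.48 ± 0.12, adjusted p = 2.7e-05) and 171 and 205 against 322 and 318 (-0.78 ± 0.11, adjusted p = 0.0012), and the SDS libraries lay near the untreated 162 and 152. ENO2, the neuronal enolase, was higher after SDS on day 1, at 1123 and 1269.5 against 625 and 603 (0.94 ± 0.09, adjusted p = 4.8e-05). SLC2A1, the glucose transporter GLUT1, had 4822 and 4871 against 8763 and 8378 on day 1 (-0.82 ± 0.07, adjusted p = 2.8e-05) and 10172 and 11557 in untreated cells.

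Among the cell type markers, KRT18, a keratin of simple epithelia that cultured fibroblasts can also carry, was lower after SDS on day 1, at 1123 and 1062 against 2453 and 2738 (-1.24 ± 0.07, adjusted p = 4.6e-06), with 1668 and 1781 against 1814 and 1768 on day 2 (-0.06 ± 0.07). FAP, fibroblast activation protein, was higher after SDS on both days, at 1692 and 1647 against 1074 and 989 and then 1364 and 1422 against 1065 and 1105 (0.69 ± 0.06 and 0.36 ± 0.06), with 1688 and 1578 in untreated cells, while PDGFRA, a platelet-derived growth factor receptor of fibroblasts, was lower on day 2, at 5067 and 5458 against 8771 and 10457 (-0.86 ± 0.09, adjusted p = 0.00028).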
